A study of Arabidopsis thaliana with 12 samples.

Results

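The 8 genes described here encode enzymes of camalexin biosynthesis in Arabidopsis thaliana: CYP79B2, CYP79B3, CYP71A12, CYP71A13, GSTF6, GSTF7, GGP1 and PAD3. They were chosen by name as enzymes of the pathway, with earlier results of these data known, out of 32744 genes in the deposited counts, and all 8 passed the low-count filter. RNA was sequenced from whole untreated seedlings in 12 libraries, 3 for each of 4 groups. The groups were wild type (WT) and the T-DNA insertion mutant snap33, each at 5 d and 12 d, as named in the titles. Per the labels, WT and snap33 seedlings of 5 d and WT seedlings of 12 d have a planting day of 29 March, but the 12 d snap33 seedlings have a planting day of 9 March, which by the dates is 32 to 34 d before harvest, against 12 to 14 d for WT. This goes against the 12 d in their titles, and the sources used here do not say which label is right. If the date is right, genotype (or time) and a longer growth cannot be told apart in any comparison that uses the snap33 12 d libraries. By the labels, the 5 d libraries of both genotypes were harvested 5, 6 and 7 d after planting for replicates 1, 2 and 3. Replicate number and seedling age therefore go together within each group. The genotype labels of the WT libraries also carry the word for a knock-out, and the protocol label of snap33 12 d replicate 1 alone mentions 3' sequencing. Only 1 mutant line was sampled, and in whole seedlings fewer cells of a type and less RNA per cell cannot be told apart.

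Camalexin is an indole phytoalexin, an antimicrobial compound that Arabidopsis makes after pathogen attack or cell damage. CYP79B2 and CYP79B3 turn tryptophan into indole-3-acetaldoxime, which also feeds indole glucosinolates and auxin. CYP71A13, with its close relative CYP71A12, turns the oxime into indole-3-acetonitrile; a glutathione transferase such as GSTF6 helps to join it to glutathione; the peptidase GGP1 trims the conjugate; and PAD3 (phytoalexin deficient 3) forms camalexin. SNAP33, the gene mutated here, encodes a SNARE protein that takes part in membrane fusion at the cell plate and the plasma membrane.

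The library labels were checked on SNAP33 itself. At 5 d its reads numbered 95, 109 and 95 in WT, against 1, 3 and 8 in the mutant. At 12 d WT libraries held 119, 168 and 108 reads, and mutant libraries 16, 14 and 14. SNAP33 was 22.3-fold lower in snap33 at 5 d (adjusted p = 9.65e-09) and 8.85-fold lower at 12 d (adjusted p = 1.78e-09). Gene counts per library ran from 4304441 to 5754570. The summed level of 9 root marker genes was 2059 to 2353 CPM (gene reads scaled to a fixed library total) in WT and 2093 to 2432 in snap33 at 5 d, and 1504 to 2072 in WT and 1299 to 1363 in snap33 at 12 d. The sum of 7 green shoot markers was 17760 to 20420 CPM in WT and 16780 to 21830 in snap33 at 5 d, and 15490 to 16930 in WT and 10370 to 11460 in snap33 at 12 d. At 5 d, edgeR called 2 of the 9 root markers (COBL9 and PRP3) lower in snap33, against 4.77% of all genes, and DESeq2 called 1 lower. None of the shoot markers was called by edgeR or DESeq2 (1 was higher at an unadjusted p under 0.05), with 8.22% of all genes called higher. PYK10 alone gave 1911 and 1970 CPM of the root marker sums in WT and snap33 at 5 d. At 12 d, 8 of the 9 root markers and 6 of the 7 shoot markers were lower, against 20.5% of all genes, and no marker was at 0 in any library; the part of this in the results below was not tested.

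The 8 genes include 3 pairs of relatives, whose sequences are shown because the members of each pair behaved differently. GSTF6 (AT1G02930, chr1:661088-662475) and GSTF7 (AT1G02920, chr1:658578-659980) lie side by side on the minus strand, 1107 bases apart with no gene between them, and their coding sequences are 94.29% identical. Positions and sequences are from RefSeq TAIR10.1. Their first 90 coding bases, 5′ to 3′, differ at 1 base, given in capitals.
GSTF6: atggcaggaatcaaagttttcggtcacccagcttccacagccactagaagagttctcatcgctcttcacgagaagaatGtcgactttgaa
GSTF7: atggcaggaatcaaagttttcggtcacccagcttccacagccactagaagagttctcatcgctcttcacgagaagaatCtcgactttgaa
Of all stretches of 50 bases in the GSTF6 transcript model, 9.41% also occur in GSTF7, and of stretches of 100 bases 1.56% do. Reads aligned to several places were not counted, so reads from those stretches are missing from both genes; the read length is not given in the sources used here.

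CYP71A12 (AT2G30750, chr2:13099486-13101371) and CYP71A13 (AT2G30770, chr2:13109909-13111988), both on the minus strand and 8537 bases apart, are 90.36% identical over their coding bases. Their first 90 coding bases differ at 12 positions, in capitals.
CYP71A12: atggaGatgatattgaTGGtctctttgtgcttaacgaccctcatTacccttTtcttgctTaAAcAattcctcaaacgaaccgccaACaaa
CYP71A13: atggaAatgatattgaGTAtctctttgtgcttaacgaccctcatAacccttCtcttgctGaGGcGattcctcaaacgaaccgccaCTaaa
Only 0.69% of stretches of 50 bases are shared between them, and none of 75 bases. The remaining members are CYP79B2 (AT4G39950, chr4:18525042-18527602) and CYP79B3 (AT2G22330, chr2:9488413-9491404), with 78.09% identical coding sequences and no shared stretch of 50 bases, GGP1 (AT4G30530, chr4:14920376-14922519) and PAD3 (AT3G26830, chr3:9887917-9889791), all on the plus strand.

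The stretches just upstream of the genes were compared as well. Within the 250 bases before the annotated starts, CYP79B2 and CYP79B3 share a run of 22 bases, in capitals below, which begins 77 bases before the start of CYP79B2 and 151 bases before that of CYP79B3.
CYP79B2: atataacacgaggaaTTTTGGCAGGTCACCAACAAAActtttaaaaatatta
CYP79B3: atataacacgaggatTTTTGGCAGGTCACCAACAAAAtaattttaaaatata
CYP71A12 and CYP71A13 share a run of 23 bases, which begins 77 bases before the start of each; their gene models begin at the start codon.
CYP71A12: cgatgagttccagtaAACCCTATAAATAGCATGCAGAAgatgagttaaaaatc
CYP71A13: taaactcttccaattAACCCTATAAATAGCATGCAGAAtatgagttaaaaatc
The core of the W-box, the element that WRKY transcription factors bind, was searched for as TTGAC and its reverse complement GTCAA. GSTF7, the one of the 8 genes called lower in snap33 at 5 d, holds 3 cores, shown in capitals in its 250 upstream bases (chr1:659981-660230, minus strand).
GSTF7: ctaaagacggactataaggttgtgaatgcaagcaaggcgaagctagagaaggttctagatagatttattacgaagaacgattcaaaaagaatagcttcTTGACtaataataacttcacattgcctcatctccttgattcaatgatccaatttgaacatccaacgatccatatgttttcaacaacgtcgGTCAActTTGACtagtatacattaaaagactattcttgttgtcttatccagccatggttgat
GGP1 holds 3 cores, CYP71A12 and CYP71A13 hold 2 each, and CYP79B2, CYP79B3 and PAD3 hold none in this window. Among 27443 windows of the same length, 44.93% hold at least 1 core, 14.11% hold 2 or more and 3.38% hold 3 or more. A match in these letters is a description and not evidence of binding.

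The levels of the 8 genes, per kilobase of exon, spread widely in young wild-type seedlings. This scaling makes genes comparable only where reads cover whole transcripts, and the label of snap33 12 d replicate 1 mentions 3' sequencing. In WT at 5 d the mean level was 161 ± 32.7 CPM per kilobase (SD, n = 3) for GSTF6, 88.5 ± 3.58 for GGP1, 40.1 ± 5.92 for CYP79B2, 28.3 ± 8.76 for GSTF7 and 20.3 ± 4.29 for CYP79B3. PAD3 stood at 1.49 ± 0.829 and CYP71A12 at 0.456 ± 0.408 CPM per kilobase, and CYP71A13 had no read. The nitrile-forming CYP71A genes and PAD3 were the lowest, and in this order GSTF7 overlapped CYP79B2 and CYP79B3, and PAD3 overlapped CYP71A12. In snap33 at 12 d the order was GSTF6 (622 ± 44.4), GSTF7 (243 ± 8.23), CYP71A13 (206 ± 17.5), GGP1 (168 ± 11.2), CYP79B2 (165 ± 14.2), CYP71A12 (135 ± 15.4), PAD3 (117 ± 5.84) and CYP79B3 (45.5 ± 0.931). There GGP1 and CYP79B2 overlapped, as did CYP71A12 and PAD3. The order depends on the length scaling. In plain CPM, CYP79B2 (353 ± 30) stood above CYP71A13 (308 ± 26) and GSTF7 (294 ± 10) in snap33 at 12 d. The RefSeq models of CYP71A12 and CYP71A13, which gave the lengths, hold coding bases alone. How this shifts their per-kilobase level against the others depends on the annotation used for counting, which is not given in the sources used here.

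**Figure D1:**
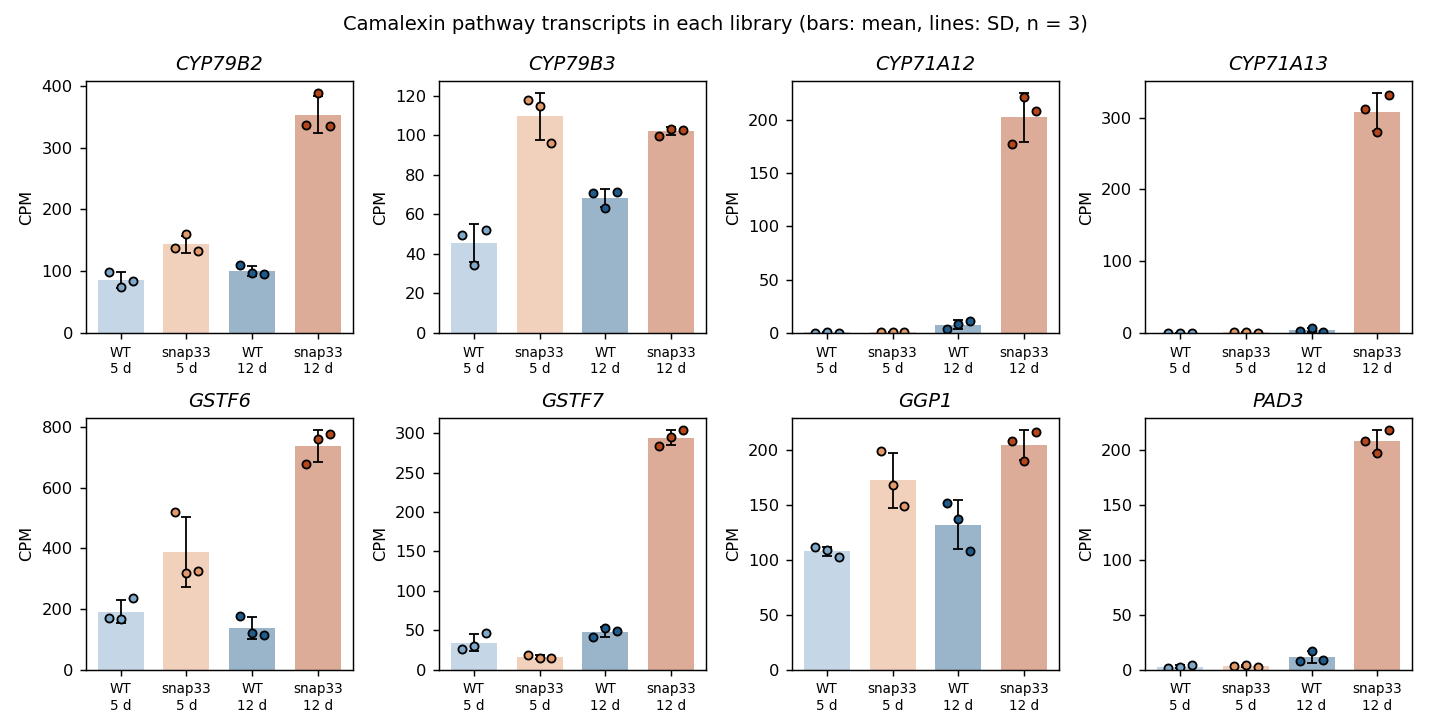
Level of each of the 8 genes in each library, in CPM after TMM scaling, with the vertical axis starting at 0 in each panel; points are libraries, bars group means and lines the SD (n = 3). The 3 snap33 12 d libraries lie above all WT 12 d libraries in all 8 panels. Of all genes, 21.1% were called higher in snap33 at 12 d by edgeR. CYP71A13 passed the low-count filter through snap33 at 12 d, so its panel adds no support. GSTF7 is lower in snap33 than in WT at 5 d, and CYP79B3 reaches its level of 12 d snap33 already in snap33 at 5 d.

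The first comparison asked how snap33 differed from WT at 5 d. Of the 8 genes, 4 were higher in snap33 (CYP79B2, CYP79B3, GSTF6 and GGP1), 1 was lower (GSTF7), and CYP71A12, CYP71A13 and PAD3 did not pass the test. Of all 18830 genes tested, 8.22% were called higher and 4.77% lower, with edgeR's quasi-likelihood test at an adjusted p (Benjamini-Hochberg) under 0.05. The median log2 fold change was 0.71 over the 8 genes and -0.003 over all genes. At 12 d all 8 genes were higher in snap33, against 21.1% of all genes higher and 20.5% lower, and the median was 2.52 against -0.037. CYP71A13 reached 10 reads in all 3 libraries in snap33 at 12 d alone, so it passed the low-count filter through that group. It was high in that group, so its call at 12 d adds no support to the count or the median.

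CYP79B2 and CYP79B3, which open the pathway, were both higher in snap33 at both ages, but in opposite proportion. CYP79B2 had 99.3, 74.3 and 83.7 CPM in WT and 137, 160 and 133 CPM in snap33 at 5 d, and 110, 96.7 and 94.8 CPM in WT and 336, 388 and 336 CPM in snap33 at 12 d. The groups did not overlap at either age. CYP79B2 was 1.67-fold higher at 5 d (log2 fold change 0.74, SE 0.12, adjusted p = 0.000448) and 3.52-fold higher at 12 d (log2 1.82, SE 0.12, adjusted p = 3.56e-10). CYP79B3 had 49.8, 34.5 and 52.2 CPM in WT and 118, 115 and 96.1 CPM in snap33 at 5 d, and 70.7, 63.0 and 71.2 CPM in WT and 99.6, 103 and 103 CPM in snap33 at 12 d. Its groups also did not overlap at either age. It was 2.41-fold higher at 5 d (log2 1.27, SE 0.14, adjusted p = 4.27e-06) and 1.49-fold higher at 12 d (log2 0.58, SE 0.13, adjusted p = 0.00154). The snap33 effect thus differed between the ages in both genes, by 1.08 on the log2 scale in CYP79B2 (SE 0.17, larger at 12 d, adjusted p = 0.000148) and by -0.69 in CYP79B3 (SE 0.19, smaller at 12 d, adjusted p = 0.0119). Of all genes, 11.0% had a difference called higher and 12.8% one called lower.

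The makeup of the CYP79B pair followed. CYP79B3 gave 31.7 to 38.4% of the pair's reads in WT and 41.8 to 46.2% in snap33 at 5 d, and 39.2 to 42.9% in WT and 21.0 to 23.5% in snap33 at 12 d. At each age the shares of the genotypes did not overlap, with snap33 above WT at 5 d and below it at 12 d. With 3 libraries against 3, an exact two-sided permutation test of a share cannot give a p below 0.1.

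CYP71A12 and CYP71A13, which commit the oxime to indole-3-acetonitrile, were nearly silent at 5 d in both genotypes. CYP71A12 had 1, 7 and 2 reads in WT and 3, 4 and 3 in snap33 at 5 d, and the ratio of their sums was 1.09 (exact 95% interval 0.407 to 2.92, counting error only). CYP71A13 had 0 reads in each WT library and 4, 5 and 1 reads in snap33 at 5 d; every snap33 library was above WT, on 10 reads in all. This difference was not called (adjusted p = 0.078). It was called without the low-count filter (adjusted p = 0.0114), with DESeq2 (0.0224), without WT 12 d replicate 2 (0.0115) and without WT 12 d replicate 3 (0.0236).

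At 12 d both genes were abundant in snap33. CYP71A12 had 19, 50 and 59 reads in WT (3.83, 8.29 and 11.6 CPM) and 961, 1211 and 1074 reads in snap33 (177, 222 and 208 CPM). It was 25.4-fold higher (log2 4.66, SE 0.22, adjusted p = 2.3e-12), with ratios of 46.2, 26.7 and 17.9 on the 3 harvest days. CYP71A13 had 14, 43 and 7 reads in WT (2.82, 7.13 and 1.38 CPM) and 1694, 1531 and 1714 reads in snap33 (312, 280 and 332 CPM). It was 77.7-fold higher (log2 6.28, SE 0.27, adjusted p = 4.14e-12), the largest change among the 8 genes at 12 d. The WT libraries set the size of that ratio: by harvest day it was 111, 39.3 and 241, and without WT 12 d replicate 2 the log2 fold change was 7.18.

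The makeup of the pair also differed between the genotypes at 12 d. CYP71A13 gave 55.8 to 63.8% of the pair's reads in snap33 at 12 d. In WT at 12 d it gave 10.6 to 46.2%, where the pair had few reads. The exact binomial intervals (counting error only) of WT replicates 1 (25.5 to 60.8%) and 2 (35.8 to 56.9%) included equal shares. That of WT replicate 3 (4.37 to 20.6%) lay below. A change of the leading gene between the genotypes was therefore not established. The snap33 effect on CYP71A12 was larger at 12 d than at 5 d by 4.54 on the log2 scale (SE 0.96, adjusted p = 0.00184), a call that was lost without WT 5 d replicate 2 (3.51, adjusted p = 0.102), which held 7 of the 10 WT reads. For CYP71A13 the difference between ages was not called (adjusted p = 0.83), with its 0 reads in WT at 5 d. CYP71A13 overlaps AT2G30766 on the opposite strand by 572 bases. AT2G30766 had 378 to 603 reads per library in WT at 5 d, where CYP71A13 had none, and 1108 to 1442 in snap33 at 12 d, and whether counting used the strand is not given in the sources used here.

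GSTF6 and GSTF7 went in opposite directions in snap33 at 5 d. GSTF6, the glutathione transferase linked to camalexin synthesis, had 172, 166 and 236 CPM in WT and 521, 318 and 324 CPM in snap33. All 3 snap33 libraries were higher, the first of them well above the other two, and GSTF6 was 2.03-fold higher (log2 1.02, SE 0.18, adjusted p = 0.00101). GSTF7, its neighbour of the same phi class, had 26.8, 29.6 and 46.4 CPM in WT and 18.7, 14.4 and 14.5 CPM in snap33. All 3 snap33 libraries were lower, and GSTF7 was 2.15-fold lower (log2 -1.10, SE 0.19, adjusted p = 0.000577). By harvest day the ratio of snap33 to WT was 3.03, 1.92 and 1.38 for GSTF6 and 0.698, 0.486 and 0.313 for GSTF7. These days were 5, 6 and 7 d after planting by the labels, and a trend with seedling age was not tested.

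At 12 d both GSTF genes were higher in snap33. GSTF6 had 178, 121 and 114 CPM in WT and 678, 759 and 778 CPM in snap33, a 5.36-fold difference (log2 2.42, SE 0.19, adjusted p = 4.34e-09). GSTF7 had 41.1, 52.9 and 49.1 CPM in WT and 284, 295 and 304 CPM in snap33, a 6.16-fold difference (log2 2.62, SE 0.16, adjusted p = 7.53e-11). The groups of both genes lay far apart. The snap33 effect was larger at 12 d by 1.40 on the log2 scale for GSTF6 (SE 0.26, adjusted p = 0.00063) and by 3.73 for GSTF7 (SE 0.24, adjusted p = 5.94e-09). GSTF7 gave 13.5 to 16.5% of the reads of the GSTF pair in WT and 3.46 to 4.33% in snap33 at 5 d, and 18.8 to 30.4% in WT and 28.0 to 29.5% in snap33 at 12 d. The shares of the genotypes stood apart at 5 d and overlapped at 12 d. Counted as 1 gene, the pair was higher in snap33 at 5 d (log2 0.84, SE 0.17, adjusted p = 0.00257), so the fall of GSTF7 is not seen in the sum.

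**Figure D2:**
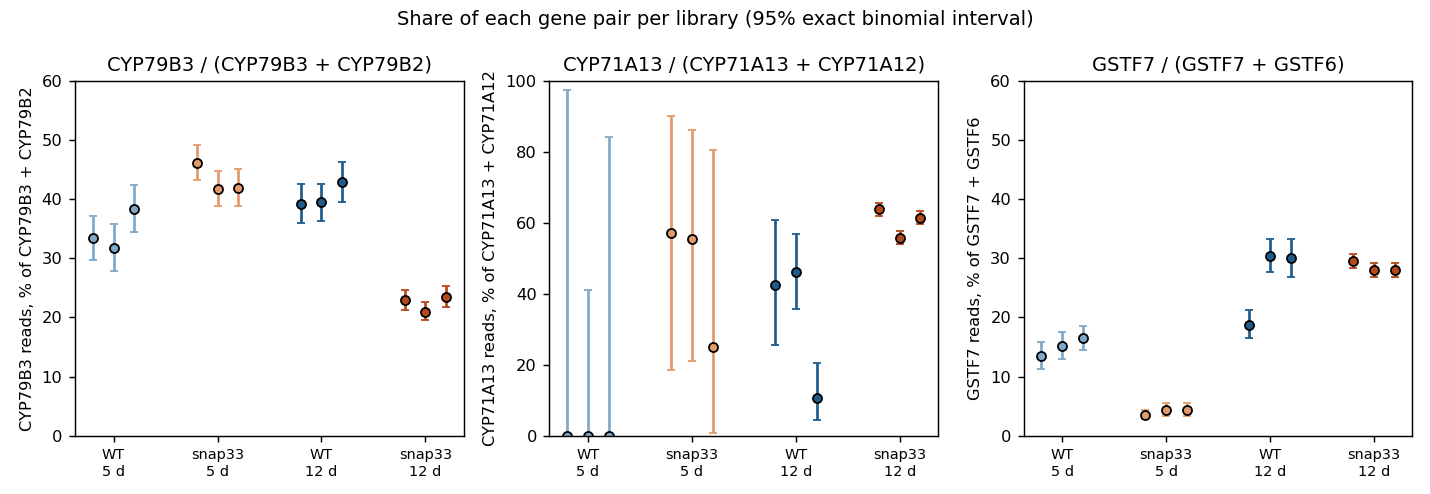
Share of the reads of each gene pair that fell on CYP79B3, CYP71A13 or GSTF7, in percent, for each library with its exact 95% binomial interval (counting error only). In snap33, the GSTF7 share is lowest at 5 d (3.46 to 4.33%) and the CYP79B3 share is lowest at 12 d (21.0 to 23.5%); the wide intervals of CYP71A13 at 5 d come from 10 or fewer reads of both genes in a library.

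GGP1, which trims the glutathione conjugate, was higher in snap33 at both ages. It had 111, 109 and 103 CPM in WT and 199, 168 and 149 CPM in snap33 at 5 d, and 151, 136 and 108 CPM in WT and 208, 190 and 216 CPM in snap33 at 12 d. Every snap33 library was above every WT library of its age. GGP1 was 1.6-fold higher at 5 d (log2 0.68, SE 0.13, adjusted p = 0.00166) and 1.55-fold higher at 12 d (log2 0.63, SE 0.13, adjusted p = 0.00051). The difference between the ages was -0.05 on the log2 scale (SE 0.18) and was not called (adjusted p = 0.892).

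PAD3, the cytochrome P450 of the last steps, was low at 5 d and high only in snap33 at 12 d. It had 6, 12 and 19 reads in WT and 14, 17 and 11 reads in snap33 at 5 d, groups that overlapped (log2 0.30, SE 0.43, adjusted p = 0.712). At 12 d it had 39, 105 and 47 reads in WT (7.85, 17.4 and 9.26 CPM) and 1130, 1077 and 1124 reads in snap33 (208, 197 and 218 CPM). The WT libraries varied more than the snap33 libraries, and the groups lay far apart. PAD3 was 17.7-fold higher (log2 4.14, SE 0.21, adjusted p = 5.83e-12), with ratios of 26.5, 11.3 and 23.5 by harvest day. The snap33 effect was larger at 12 d by 3.84 on the log2 scale (SE 0.52, adjusted p = 2.78e-05).

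Summed over the 8 genes, the level was 416.6 to 525.6 CPM in WT and 721.1 to 998.7 CPM in snap33 at 5 d, and 459.6 to 565.1 CPM in WT and 2303 to 2495 CPM in snap33 at 12 d. At 5 d the sums of the genotypes did not overlap, and GSTF6, GGP1 and CYP79B2 gave the largest parts of them in both.

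**Figure D3:**
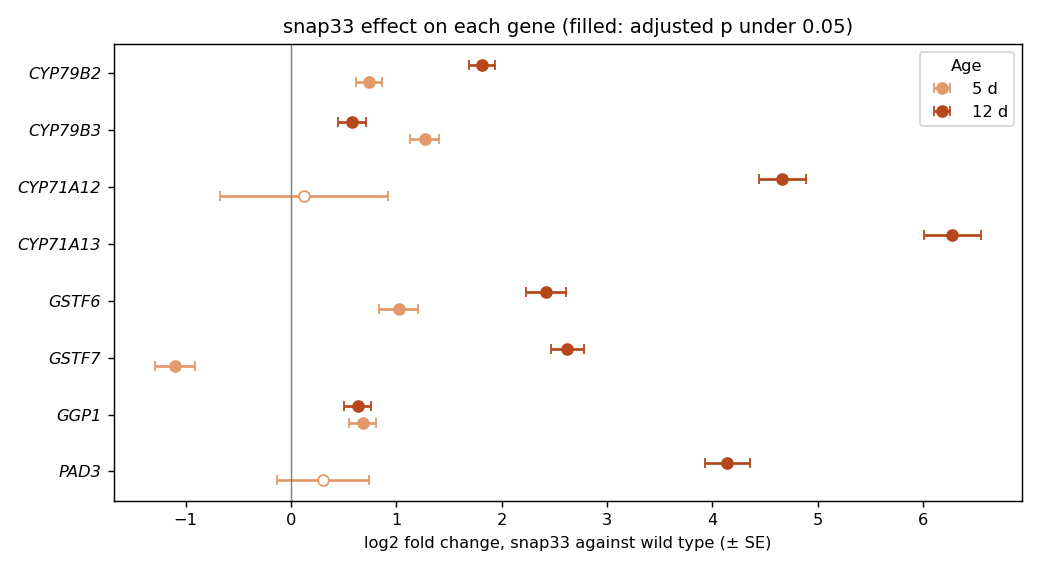
Log2 fold change of snap33 against WT for each gene at 5 d and 12 d, with its SE from the edgeR fit (3 libraries per group); filled points passed an adjusted p of 0.05. CYP71A13 has no point at 5 d because WT had 0 reads; CYP79B3 is the one gene called at both ages with a smaller value at 12 d by the test of the difference, and GSTF7 changes sign between 5 d and 12 d.

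The libraries also allowed 12 d to be compared with 5 d within a genotype. In WT, 5 of the 8 genes were higher at 12 d and 1 was lower, against 21.5% of all genes higher and 19.2% lower. PAD3 was 4.42-fold higher (log2 2.14, SE 0.33, adjusted p = 3.98e-05) and CYP79B3 1.5-fold higher (log2 0.59, SE 0.14, adjusted p = 0.00214). CYP71A12 was 10.8-fold higher (log2 3.44, SE 0.47, adjusted p = 1.03e-05; 4.47 without WT 5 d replicate 2). CYP71A13 went from 0 reads to 64 over the 3 WT libraries, 43 of them in replicate 2 (adjusted p = 9.24e-05). So the genes that were nearly silent at 5 d were detected in WT at 12 d too, at a low level.

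The 2 GSTF genes were called in opposite directions between the ages in WT, on overlapping groups. GSTF7 was 1.4-fold higher (log2 0.48, SE 0.17, adjusted p = 0.026), a call lost when WT 5 d replicate 1 (adjusted p = 0.151), WT 5 d replicate 2 (0.12) or WT 12 d replicate 2 (0.0843) was left out, and with only the 2 groups compared (0.0628). GSTF6 was lower (log2 -0.47, SE 0.19, adjusted p = 0.0489), a call lost under 9 of 19 alternatives, among them leaving out WT 5 d replicate 1 or 3, WT 12 d replicate 2 or 3, or any of the 3 snap33 12 d libraries. CYP79B2 (log2 0.23, adjusted p = 0.15) and GGP1 (log2 0.30, adjusted p = 0.0756) were not called.

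In snap33, 6 of the 8 genes were higher at 12 d and none was lower (0 at an unadjusted p under 0.05 and 0 with DESeq2), against 28.2% of all genes higher and 26.6% lower. CYP71A13 was 385-fold higher (log2 8.59, SE 0.35, adjusted p = 1.63e-12) and CYP71A12 253-fold higher (log2 7.98, SE 0.32, adjusted p = 2.06e-13), each from 10 reads over the 5 d group. Because CYP71A13 passed the low-count filter through snap33 at 12 d, its call adds no support to the count. PAD3 was 63.3-fold higher (adjusted p = 4.91e-13) and GSTF7 18.5-fold higher (adjusted p = 4.21e-13). CYP79B2 was 2.47-fold higher (adjusted p = 2.48e-08) and GSTF6 1.9-fold higher (adjusted p = 0.000255). CYP79B3 (log2 -0.10, adjusted p = 0.519) and GGP1 (log2 0.25, adjusted p = 0.104) were not called. Both had been higher in snap33 than in WT at 5 d, but so had CYP79B2 and GSTF6, which were called higher with age. These age comparisons use the same libraries as the genotype comparisons and are not independent of them.

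The known regulators of the pathway, a list of 19 genes, were compared with its enzymes. At 5 d, 5 of the 19 were higher in snap33 and none was lower (0 lower at an unadjusted p under 0.05 and 0 with DESeq2), against 8.22% and 4.77% of all genes. WRKY33, the transcription factor that activates PAD3 and CYP71A13 after infection, had 8.48, 9.21 and 8.93 CPM in WT and 13.6, 13.2 and 16.0 CPM in snap33, 1.6-fold higher (adjusted p = 0.00629). The related factors WRKY40 (1.10 ± 0.78 against 4.34 ± 0.63 CPM, SD, n = 3, adjusted p = 0.00315) and WRKY18 (1.59-fold, adjusted p = 0.016) were higher as well, as were the ethylene response factor ERF72 (2.38-fold, adjusted p = 0.000119) and the kinase MPK3 (1.4-fold, adjusted p = 0.0215). These 5 regulators were called higher at an age at which PAD3, CYP71A12 and CYP71A13 were not called. The other 14 regulators were not called either. CYP71A12 and CYP71A13 had 10 or fewer reads per group there, which limits what can be detected. DESeq2 called CYP71A13 higher at 5 d (adjusted p = 0.0224).

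At 12 d, 16 of the 19 regulators were higher in snap33 and 1 was lower, against 21.1% and 20.5% of all genes. Of these, MYB122, NAC042 and ERF1 passed the low-count filter only through snap33 at 12 d, the group in which they were high. Their calls add no support to this count, nor to the count of larger effects at 12 d given below. SIB1, a partner protein of WRKY33, was at 3.70 ± 0.83 CPM in WT and 105 ± 17 in snap33 (28.1-fold, adjusted p = 3.51e-13). MYB122, a MYB factor of indolic metabolism, was at 1.53 ± 0.82 and 27.1 ± 0.38 CPM (17.2-fold, adjusted p = 9.96e-11), and NAC042, a NAC factor that promotes camalexin synthesis, at 1.36 ± 0.69 and 24.1 ± 1.1 CPM (17.3-fold, adjusted p = 1.2e-10). WRKY33 had 16.1, 15.6 and 15.6 CPM in WT and 62.2, 62.8 and 64.9 CPM in snap33, 4.01-fold higher (adjusted p = 1.02e-10). The lower one, named after its value was seen, was MYB34, a further MYB factor of indole glucosinolate synthesis (39.5 ± 7.7 against 26.8 ± 3.8 CPM, adjusted p = 0.0077). The snap33 effect was larger at 12 d for 12 of the 19, against 11.0% of all genes, among them WRKY33 (by 1.32 on the log2 scale, adjusted p = 9.33e-05), MYB122 (4.73, adjusted p = 2.17e-05), NAC042 (4.23, adjusted p = 0.000105) and WRKY18 (1.57, adjusted p = 7.46e-05), and smaller for ERF72 alone (-1.31, adjusted p = 0.000756), against 12.8% of all genes.

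Tryptophan is the substrate of the pathway. None of 11 tryptophan synthesis genes was called at 5 d by edgeR or DESeq2, with 2 higher at an unadjusted p under 0.05 and a median log2 fold change of 0.09. Few calls would be looked for in a list of this size, as 8.22% of all genes were called higher and 4.77% lower at 5 d. At 12 d, 8 of the 11 were higher in snap33 and 1, PAI1, was lower, against 21.1% and 20.5% of all genes. TSA1, the alpha subunit of tryptophan synthase, was at 52.7 ± 5.9 CPM in WT and 167 ± 7.9 in snap33 (3.17-fold, adjusted p = 2.4e-10), and TSB1, the beta subunit, at 31.5 ± 4.1 and 94.2 ± 6.6 CPM (2.99-fold, adjusted p = 1.28e-08). ASA1 and ASB1, subunits of the anthranilate synthase that opens the route, were 4.3-fold (adjusted p = 4.52e-09) and 2.93-fold higher (adjusted p = 3.81e-08). PAI1 (log2 -0.73, adjusted p = 0.00226) and PAI2, called higher, are close copies of each other whose reads may not be divided with certainty. The effect was larger at 12 d than at 5 d for 7 of the 11, against 11.0% of all genes, by 1.71 for TSA1 (adjusted p = 2.75e-07) and 1.66 for ASA1 (adjusted p = 0.000104).

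Among 10 genes of glutathione supply and the GGP family, 7 could be tested. None was called at 5 d by edgeR or DESeq2, with 2 higher and 1 lower at an unadjusted p under 0.05. Of all genes, 8.22% were called higher and 4.77% lower at that age, so few calls would be looked for among 7 genes. At 12 d 6 were higher in snap33 and 1 was lower, against 21.1% and 20.5% of all genes. GGT1, a gamma-glutamyl transferase of the apoplast, was at 14.5 ± 1.3 CPM in WT and 54.4 ± 9.2 in snap33 (3.75-fold, adjusted p = 6.63e-09), and GSH2, the glutathione synthetase, at 30.2 ± 4.1 and 56.6 ± 5.0 CPM (1.87-fold, adjusted p = 9.64e-06). PCS1, the phytochelatin synthase, was 1.79-fold higher (adjusted p = 0.00121). The lower gene was GR2, the glutathione reductase of plastids and mitochondria (154 ± 6.2 against 99.1 ± 5.7 CPM, adjusted p = 4.17e-05).

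Of 12 genes on other branches from indole-3-acetaldoxime and indole-3-acetonitrile, 11 were tested. At 5 d, 4 were higher in snap33 and 1 was lower, against 8.22% and 4.77% of all genes. Those higher included the glucosinolate enzymes CYP83B1 (130 ± 10 CPM in WT, 253 ± 7.0 in snap33, adjusted p = 3.19e-05), SOT16 (1.57-fold, adjusted p = 0.00168) and UGT74B1 (1.41-fold, adjusted p = 0.0172). The lower one was CYP81F2, which modifies indole glucosinolates (8.63 ± 0.91 against 3.13 ± 1.5 CPM, adjusted p = 0.00335). At 12 d, 10 of the 11 were higher, against 21.1% of all genes. CYP82C2, which hydroxylates an indole cyanide that also comes from the oxime, had 16 reads over WT and 1462 over snap33 (88.9-fold, adjusted p = 7.56e-11); it passed the low-count filter only through snap33 at 12 d, so its call adds no support to the count. AT1G26380, a berberine bridge-type oxidase of the same branch, was 16.9-fold higher (adjusted p = 2.56e-11), CYP71B6, which uses indole-3-acetonitrile, 2.66-fold (adjusted p = 9.74e-09), and CYP81F2 4.62-fold (adjusted p = 2.41e-07). CYP81F2, like GSTF7, was called in opposite directions at the 2 ages, and the difference was 3.65 on the log2 scale (adjusted p = 1.61e-06). CYP83B1, like CYP79B3, had a smaller snap33 effect at 12 d (difference -0.51, adjusted p = 0.0397).

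The other phi-class glutathione transferases, 11 genes, place the GSTF6 and GSTF7 values among their relatives. At 5 d 6 were higher in snap33 and none was called lower by edgeR or DESeq2, although 1 was lower at an unadjusted p under 0.05; of all genes, 8.22% were called higher and 4.77% lower. GSTF4 (AT1G02950), close to GSTF6 in locus number, was at 29.4 ± 1.2 CPM in WT and 73.5 ± 1.8 in snap33 (2.5-fold, adjusted p = 8.25e-07). GSTF12, which takes part in anthocyanin storage, was 1.97-fold higher (adjusted p = 3.07e-05), GSTF5 3.91-fold (adjusted p = 0.00533) and GSTF10 1.37-fold (adjusted p = 0.00566). At 12 d 7 of the 11 were higher, against 21.1% of all genes, with GSTF2 rising from 428 ± 47 CPM in WT to 1584 ± 56 in snap33 (3.7-fold, adjusted p = 9.25e-11). GSTF12 (2.83-fold, adjusted p = 1.92e-08), GSTF10 (2.35-fold, adjusted p = 9.18e-09) and GSTF3 (3.31-fold, adjusted p = 6.55e-06) were also higher then.

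Of 3 camalexin transporters, none was called at 5 d by edgeR or DESeq2, with 1 higher at an unadjusted p under 0.05. At that age 8.22% of all genes were called higher and 4.77% lower. In snap33 at 12 d 2 of the 3 were higher, against 21.1% of all genes. ABCG40 was at 3.44 ± 1.5 CPM in WT and 350 ± 3.0 in snap33 (98.4-fold, adjusted p = 3.04e-15), and ABCG36 (PEN3) at 82.9 ± 2.6 and 190 ± 35 CPM (2.29-fold, adjusted p = 2.62e-07). At 5 d ABCG40 was at 0.987 ± 0.16 CPM in WT and 0.864 ± 0.39 in snap33.

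**Figure D4:**
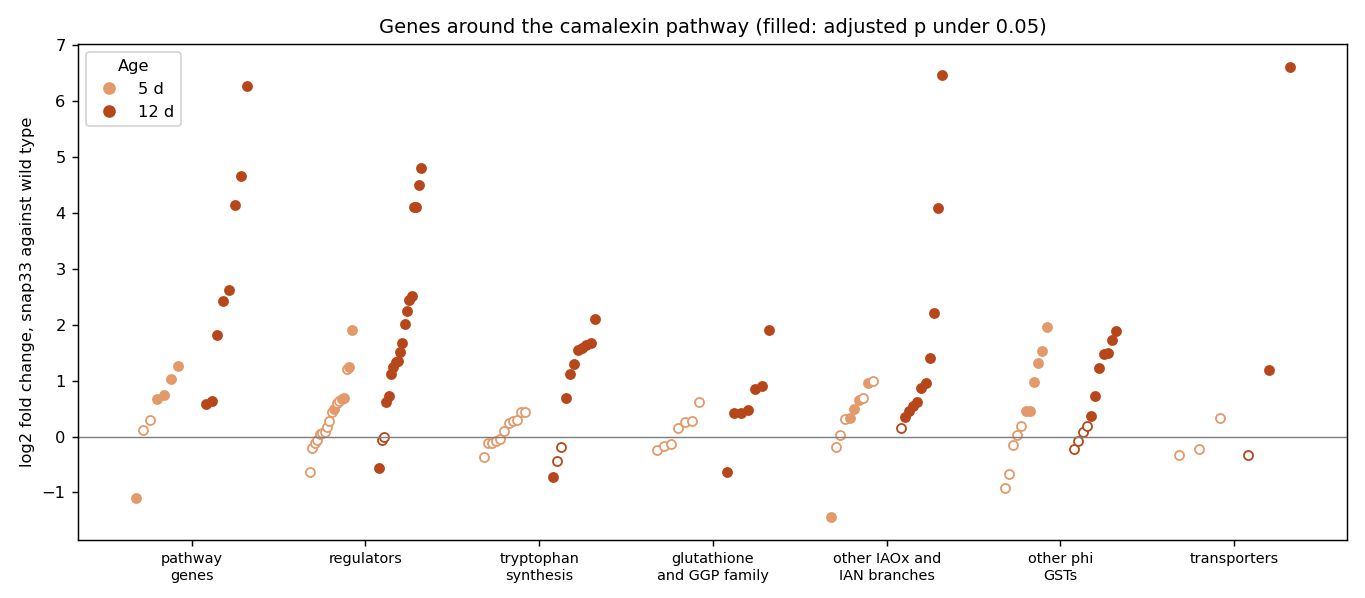
Log2 fold change of snap33 against WT at 5 d and 12 d for each gene of the pathway and of the lists around it, with filled points for an adjusted p under 0.05; genes with 3 or fewer reads over a group are left out. Among the tryptophan synthesis genes no point is filled at 5 d and 9 of 11 are filled at 12 d. Of all genes, 8.22% were called higher and 4.77% lower at 5 d, and 21.1% and 20.5% at 12 d.

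For each of the 8 genes, the genes with the most similar course over the 12 libraries were looked up among 15235 genes, by the root mean square (RMS) difference of centred log2 CPM. The measure is a description, and the libraries share their groups. PAD3 was closest to AT3G54150 (RMS 0.398), annotated as a methyltransferase, and to the wall-associated kinase-like gene WAKL10 (0.4). AT3G54150 was at 2.06 ± 0.327 CPM in WT and 44.5 ± 8.03 in snap33 at 12 d. CYP71A13 was closest to FMO1, which makes the immune signal N-hydroxypipecolate (RMS 0.448; 2.62 ± 1.64 CPM in WT and 170 ± 21.9 in snap33 at 12 d). CYP71A12 was closest to AT1G26390, a berberine bridge-type oxidase (0.65), and CYP82C2 (0.658). GSTF7 was closest to AT4G16260, annotated as a glycosyl hydrolase (0.469), GSTF6 to Hsp70-2 (0.297), CYP79B2 to AT1G76070 (0.156), CYP79B3 to AT1G56150, a SAUR-type gene (0.139), and GGP1 to AT5G20190 (0.134). The nearest gene of the pathway itself was never among the 3 closest: for GSTF6 it was CYP79B2 at rank 9, for CYP71A12 it was PAD3 at rank 12, for CYP71A13 it was CYP71A12 at rank 20, for CYP79B3 it was GGP1 at rank 53, for PAD3 it was CYP71A12 at rank 82, for CYP79B2 it was GSTF6 at rank 523, for GGP1 it was CYP79B3 at rank 624, and for GSTF7 it was CYP79B2 at rank 1013.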

How the data were processed

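The authors deposited raw counts of reads for every gene in each of 12 libraries. STAR and TAIR10 are named in the submitters' processing notes as aligner and build; the closing lines of the files are those of htseq-count. The sources used here give no version, annotation, strand setting or read length. Reads without a gene (9.256 to 12.15% per library) were left out.

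All 12 libraries entered 1 edgeR 4.0.16 fit (R 4.3.3; quasi-likelihood test, TMM scaling, filterByExpr with a minimum count of 10, 18830 genes kept, Benjamini-Hochberg adjustment, calls at an adjusted p under 0.05) with a mean per group and 5 contrasts: the genotypes at each age, the difference of those effects, and the ages in each genotype. The fit was tested on simulated data. CPM use TMM-scaled totals. Alternatives were DESeq2 1.42.0, other scalings and filters, only the 2 groups compared, near-identical pairs summed, a replicate block and leaving out each library. Per the labels, same-numbered WT and snap33 libraries of an age share a harvest day; their deviations from the group means correlated at -0.253 to -0.00381. The series' design text speaks of biological replicates, but each group had 1 planting date, so p-values measure the spread between these samples.

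The 8 genes and the lists were chosen with earlier results of these data known, and the other pathway genes come from textbook knowledge. Named by rule were the 8 genes, SNAP33, up to 4 called genes with the smallest p per list and comparison, the closest genes by course, and genes that overlap a member. Sequences are from RefSeq TAIR10.1, which was not used for counting; the upstream window of GSTF6 is not reported here. Intervals are exact at 95% and, like the floor of 3 reads over a group, cover counting error only.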

Additional observations from a re-analysis of the deposited data

Results flagged for a closer look

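The difference between the snap33 effects at 12 d and 5 d itself passed the test in 6 of the 8 genes, with edgeR's adjusted p under 0.05, 5 of them larger and 1 smaller at 12 d, against 11.0% and 12.8% of all genes. On the log2 scale, as the effect at 12 d minus that at 5 d, it was 1.075 for CYP79B2 (SE 0.171, adjusted p = 0.000148), 1.401 for GSTF6 (SE 0.26, adjusted p = 0.00063) and 3.841 for PAD3 (SE 0.516, adjusted p = 2.78e-05). For CYP71A12 it was 4.542 (SE 0.961, adjusted p = 0.00184), and 3.512 (adjusted p = 0.102) without WT 5 d replicate 2. For GSTF7 it was 3.725 (SE 0.243, adjusted p = 5.94e-09), from lower in all 3 snap33 libraries at 5 d to higher in all 3 at 12 d. For CYP79B3 it was -0.692 (SE 0.19, adjusted p = 0.0119), from 2.41-fold higher at 5 d to 1.49-fold higher at 12 d. If the planting date on the labels of the snap33 12 d seedlings is right, a longer growth and the age effect cannot be told apart in any of these.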

How the results depend on the processing

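Over 769 alternative values of the log2 fold changes of the 8 genes, 743 kept their direction and their side of the threshold, 14 lost and 6 gained the call, and 6 changed sign. Those that changed sign were not called: leaving out a library, CYP71A12 at 5 d ranged from -0.267 to 1.151 and was -0.267, -0.101 and -0.047 without WT 5 d replicate 1, WT 5 d replicate 3 and snap33 5 d replicate 2, and the difference between ages in GGP1 ranged from -0.174 to 0.08 and was 0.072, 0.08 and 0.006 without snap33 5 d replicate 1, WT 12 d replicate 1 and snap33 12 d replicate 2. With near-identical pairs counted as 1 gene each, 0 genes were lower at 5 d. In WT, 12 d against 5 d, 3 genes were higher with only the 2 groups compared and 3 with the pairs counted as 1, and 0 were lower with DESeq2, with only the 2 groups compared and with the pairs counted as 1; the last has fewer genes, with only the 2 groups compared CYP71A13 did not pass the low-count filter and was not tested, and the other causes were not tested. Leaving out each library gave 4 to 5 genes higher and 1 lower at 5 d, 8 higher at 12 d, 4 to 5 larger and 1 smaller in the difference, 4 to 6 higher and 0 to 1 lower with age in WT, and 6 to 7 higher with age in snap33. GGP1 was called higher with age in WT without WT 12 d replicate 3 (adjusted p = 0.00865) and in snap33 without snap33 5 d replicate 1 (0.0345). The harvest-day replicate block changed no call of the 8 genes (GSTF7 at 5 d -1.078, adjusted p = 0.00136), but over all genes it left 489 called lower at 5 d against 898. Upper-quartile scaling moved the median of all genes at 12 d from -0.037 to -0.156 and the share of calls that were higher from 50.7% to 38.2%; for the difference that share went from 46.2% to 37.3%, and for age in snap33 from 51.4% to 40.9%. All genes called at 5 d came to 7.67% to 16.9% of those tested when a library was left out, against 13.0%. At 5 d, 10 or fewer reads of CYP71A12 and CYP71A13 per group limit what can be detected.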
